A study of Rattus norvegicus with 48 samples.

Results

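Atrogenes are genes whose transcripts have been found to change together when skeletal muscle wastes, whatever sets off the wasting. The 37 atrogenes described here are those of the study's atrogene table that its tables of differentially expressed genes (DEGs) pair with an Ensembl identifier, without 16 others, among them the ubiquitin ligases Trim63 and Fbxo32. They are 37 of the 31998 genes in the deposited count table, and 37 of 37 passed the filter on low counts. Because an identifier was needed, each of the 37 was chosen by its response to immobilization in these same rats: 35 were listed for plantaris of low responders, 10 of them also for plantaris of high responders, and Hspb1 and Pfkfb3 only for soleus of high responders. Fam214a and Oxct1 were listed in all 4 comparisons.

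The rats were females of generation 19 of lines bred for a low (LRT) or a high (HRT) response to endurance training, and were 14 months old. In each line 6 rats wore a cast on 1 hindlimb for 3 d (HI), with the foot held pointed, and 6 separate rats were left without a cast (CTRL). All of these rats had been trained on a treadmill earlier in life, so no group was untrained. The study's methods state a puromycin injection before collection for the immobilized rats, and its results give puromycin-based protein synthesis for the controls too. Plantaris and soleus were taken from every rat, which gave 8 groups of 6 libraries and 48 libraries in all. As models, the lines were genetically mixed and bred by a rotation that limits inbreeding, and the control muscle came from another rat and not from the free limb of the same rat.

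In a wasting muscle, proteins are tagged with ubiquitin and broken down by the proteasome, and organelles and larger protein assemblies are carried to the lysosome by autophagy. FoxO transcription factors switch on genes of both routes, while transcripts for glycolysis, mitochondrial respiration and the contractile apparatus are commonly lower. Plantaris is a mainly fast, glycolytic muscle of the rat, and soleus is a slow, oxidative muscle that carries weight during standing.

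The estimated counts summed to between 26.8 M and 36.4 M per library, and RNA integrity numbers (RIN) were between 7.8 and 8.6. Levels are counts per 1000000 of the scaled library size (CPM) and are not divided by gene length, so they compare samples and not genes. Differences are log2 fold changes ± SE from 1 edgeR model over the 48 libraries, with Benjamini-Hochberg adjustment over 16960 tested genes, and a gene was called at an adjusted p under 0.05. Every value printed with ± is such a log2 fold change and its SE, with HI against CTRL where no other pair is named. The fast-muscle markers Pvalb and Atp2a1 were higher in plantaris than in soleus of CTRL rats, by 10.46 ± 0.74 and 3.47 ± 0.33 in LRT and by 10.37 ± 0.73 and 4.06 ± 0.34 in HRT, and Casq2, the calsequestrin of slow fibers, was higher in soleus, at -3.25 ± 0.39 and -3.21 ± 0.39 as plantaris against soleus. In bulk tissue, fewer cells of a type and less RNA per cell cannot be told apart.

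RefSeq promoters on the GRCr8 build were matched to 33 of the 37 genes, 31 by symbol and 2 by a synonym (Atosa for Fam214a and Myl11 for Mylpf). Kctd9, Myc and Srl are among those with no sequence here. The 250 bases before the start are shown for 6 genes on which the results turn: Fam214a and Oxct1, which were listed in all 4 comparisons, Ndufs1 and Sqstm1, which passed the test in soleus, Gpnmb, which had the largest log2 fold change, and Ppp1r15a, whose change had opposite signs in the muscles. They lie at chr8:84575318-84575567 on the plus strand (Fam214a), chr2:54963714-54963963 on the plus strand (Oxct1), chr9:72073606-72073855 on the minus strand (Ndufs1), chr10:35037751-35038000 on the minus strand (Sqstm1), chr4:79340878-79341127 on the plus strand (Gpnmb) and chr1:105139597-105139846 on the minus strand (Ppp1r15a), and are written 5′ to 3′ along the gene. Capitals mark matches on either strand to 6 motifs: GTAAACA (forkhead factors), CACGTG (E-box of the TFEB and MYC kind), TGACNNNGC (antioxidant response element), TGACGTCA (CRE), CAGCTG (E-box of myogenic factors) and TATAAA (a core promoter element).
Fam214a: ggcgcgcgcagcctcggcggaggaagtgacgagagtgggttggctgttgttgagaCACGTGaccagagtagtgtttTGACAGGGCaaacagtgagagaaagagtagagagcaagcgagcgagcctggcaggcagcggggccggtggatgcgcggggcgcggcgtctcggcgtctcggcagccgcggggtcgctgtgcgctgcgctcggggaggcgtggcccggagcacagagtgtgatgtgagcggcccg
Oxct1: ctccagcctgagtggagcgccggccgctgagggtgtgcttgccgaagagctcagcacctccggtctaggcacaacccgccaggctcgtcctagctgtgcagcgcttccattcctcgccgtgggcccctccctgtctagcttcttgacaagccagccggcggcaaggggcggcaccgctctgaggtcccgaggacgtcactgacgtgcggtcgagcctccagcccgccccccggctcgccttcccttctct
Ndufs1: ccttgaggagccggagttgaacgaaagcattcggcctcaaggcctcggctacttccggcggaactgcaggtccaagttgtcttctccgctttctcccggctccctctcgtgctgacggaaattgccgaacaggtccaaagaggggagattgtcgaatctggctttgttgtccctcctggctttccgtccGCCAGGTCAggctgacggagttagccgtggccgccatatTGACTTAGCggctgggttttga
Sqstm1: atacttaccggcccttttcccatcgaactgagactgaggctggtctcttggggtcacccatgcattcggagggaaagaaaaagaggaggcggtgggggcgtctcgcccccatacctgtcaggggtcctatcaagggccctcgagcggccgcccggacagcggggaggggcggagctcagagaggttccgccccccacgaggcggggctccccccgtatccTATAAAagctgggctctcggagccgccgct
Gpnmb: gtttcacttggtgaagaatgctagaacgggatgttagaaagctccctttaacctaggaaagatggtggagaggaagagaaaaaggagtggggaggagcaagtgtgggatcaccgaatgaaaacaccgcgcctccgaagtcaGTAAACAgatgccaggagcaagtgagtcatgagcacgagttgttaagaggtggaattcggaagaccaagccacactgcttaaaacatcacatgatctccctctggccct
Ppp1r15a: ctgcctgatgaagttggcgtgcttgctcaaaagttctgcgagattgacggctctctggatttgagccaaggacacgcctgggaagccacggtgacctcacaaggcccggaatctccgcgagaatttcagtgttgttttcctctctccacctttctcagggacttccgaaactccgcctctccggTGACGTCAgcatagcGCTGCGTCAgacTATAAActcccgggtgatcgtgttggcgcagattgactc

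The forkhead motif GTAAACA was in 1 of the 33 promoters, that of Gpnmb (3.03%), against 3.21% of 33469 RefSeq promoters of the same length. CACGTG was in 4 (12.1% against 5.59%): Fam214a, Ldha, Pfkfb3 and Psmb3. TGACNNNGC was in 6 (18.2% against 10.1%): Fam214a, Foxo1, Jph2, Ndufs1, Ppargc1a and Ppp1r15a. TGACGTCA, which shares its first letters with TGACNNNGC but cannot overlap a match to it, was in 3 (9.09% against 1.59%): Ldha, Ppargc1a and Ppp1r15a. CAGCTG was in 4 (12.1% against 12.0%) and TATAAA in 5 (15.2% against 12.9%), among them Sqstm1 and Ppp1r15a. None of the 6 motifs was in the Oxct1 window. These matches describe letters in a window and not sites in use.

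In immobilized plantaris of both lines, the ubiquitin-proteasome and autophagy genes read higher than in CTRL, and the mitochondrial genes, the sarcomere and calcium genes and 4 of the 5 glycolytic genes read lower. Under the sign of the LRT plantaris response, the 37 genes fell into 20 with higher and 17 with lower values in HI. The median log2 fold change of the 20 was 1.48 in LRT and 0.98 in HRT plantaris, and that of the 17 was -1.22 in LRT and -0.73 in HRT. In LRT plantaris 35 of 37 were called, beside 28.7% of all tested genes, and in HRT plantaris 21 of 37, beside 11.0%. HI and CTRL ranges stayed apart for 27 genes in LRT plantaris, beside 10.4% of all genes, and for 19 in HRT plantaris, beside 8.66%. These plantaris values chose the genes, so they carry no test and nothing is read from their counts. Without replicate 4 of HRT HI, 9 genes were called in HRT plantaris. Among the 35 listed genes, Pfkm (-0.92 ± 0.20) and Srl (-0.98 ± 0.18) had the smallest log2 fold changes in LRT plantaris. The 2 genes not listed there had 0.77 ± 0.38 (Hspb1) and 0.13 ± 0.29 (Pfkfb3).

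**Figure D1:**
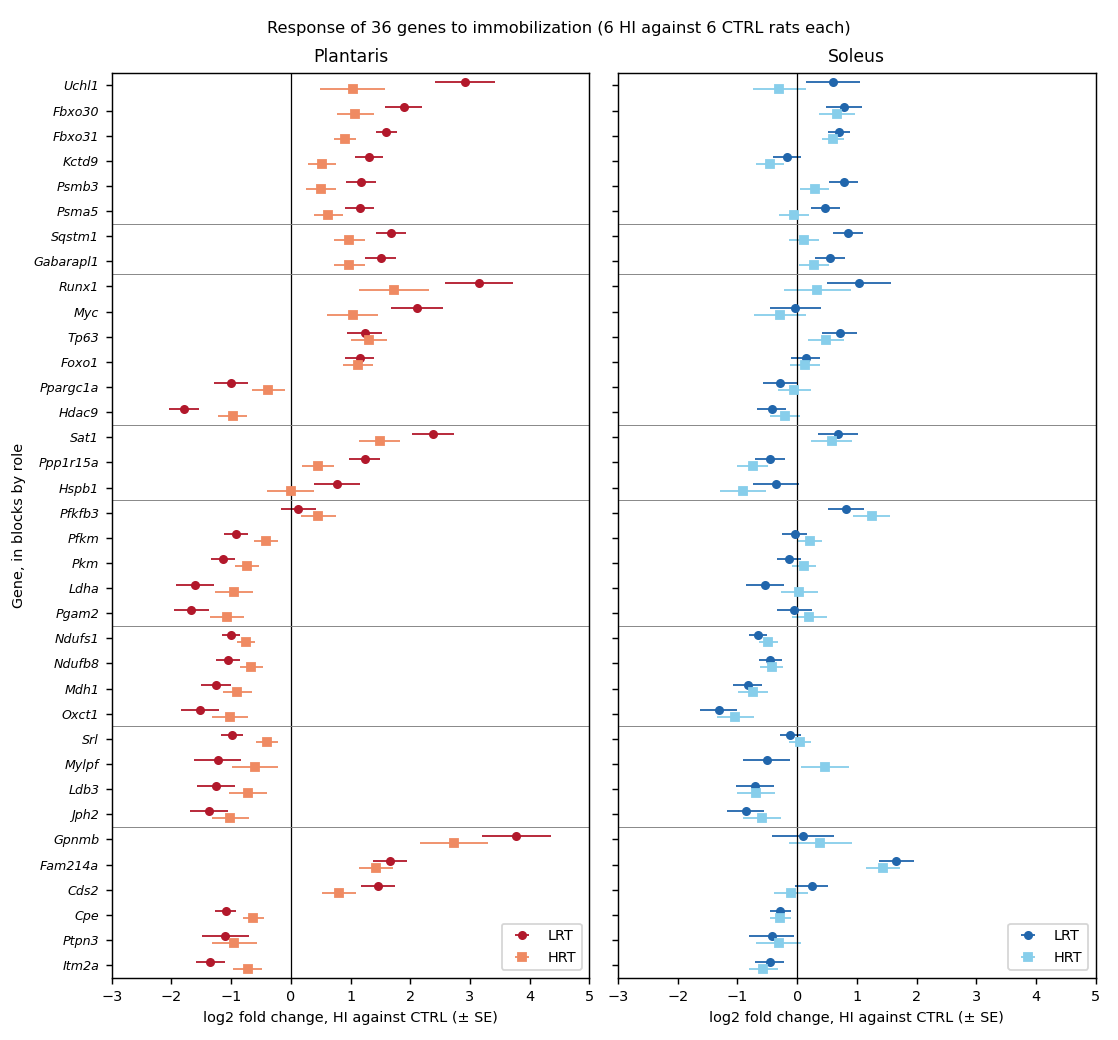
Log2 fold change of HI against CTRL (x axis, ± SE, 6 rats against 6) for 36 of the 37 genes (y axis), in plantaris and soleus, with LRT and HRT as separate points. In plantaris LRT points lie farther from 0 than HRT points for all genes drawn but Pfkfb3 and Tp63, and in soleus most points lie nearer to 0.

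The ubiquitin-proteasome group holds 7 genes, and all 7 read higher in HI plantaris of both lines, with a median log2 fold change of 1.31 in LRT, and of 0.63 in HRT. In LRT soleus the test called 2 of them higher in HI (Fbxo31 and Psmb3), beside 7.36% of all tested genes. In HRT soleus it called 1 higher (Fbxo31), beside 7.95%, and nothing is read from these counts. Uchl1, a deubiquitinating enzyme best known from neurons, had the largest value of the group in LRT plantaris. In LRT plantaris, Uchl1 read 0.112 to 0.736 CPM in CTRL (median 0.462) and 0.771 to 8.39 CPM in HI (median 1.81). All 6 HI libraries lay above every CTRL library, and replicates 1 and 3 were far above the other HI libraries. Uchl1 in HRT plantaris lay between 0.337 and 0.594 CPM in CTRL, with a median of 0.385, and between 0.350 and 2.64 CPM in HI, with a median of 0.481. Only replicates 1 and 4 of HRT HI were above all CTRL libraries. The log2 fold change reached 2.92 ± 0.50 in LRT, against 1.03 ± 0.54 in HRT plantaris, or 0.39 without HRT HI replicate 4. In soleus the Uchl1 ranges overlapped in both lines, with 0.60 ± 0.45 in LRT and -0.30 ± 0.45 in HRT.

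Fbxo30 and Fbxo31 are F-box proteins, the substrate-binding parts of SCF ubiquitin ligases. In LRT plantaris, Fbxo30 read 30.7 to 35.6 CPM in CTRL (median 34.8) and 36.8 to 244 CPM in HI (median 85.1). In HRT plantaris, Fbxo30 read 27.6 to 33.3 CPM in CTRL (median 31.5) and 38.8 to 129 CPM in HI (median 44.6). In both lines all 6 HI libraries were above all CTRL libraries, and the log2 fold change reached 1.89 ± 0.31 in LRT, against 1.08 ± 0.31 in HRT. Fbxo30 in LRT soleus lay between 37.2 and 44.8 CPM in CTRL, with a median of 40.3, and between 39.7 and 114 CPM in HI, with a median of 56.7. Fbxo30 in HRT soleus lay between 24.7 and 44.4 CPM in CTRL, with a median of 38.2, and between 45.6 and 75.7 CPM in HI, with a median of 57.1. In HRT soleus the HI range lay above the CTRL range without overlap, and in LRT soleus 5 of 6 HI libraries were above all CTRL libraries. The soleus changes of 0.78 ± 0.30 in LRT and 0.66 ± 0.31 in HRT did not pass the edgeR test, with adjusted p = 0.074 and 0.13, and the LRT one did with each muscle fitted alone (0.031) and with library totals (0.037). Fbxo31 values in LRT plantaris ran from 29.1 to 44.0 CPM in CTRL (median 35.4) and from 67.9 to 152 CPM in HI (median 111). Fbxo31 values in HRT plantaris ran from 33.4 to 41.7 CPM in CTRL (median 39.3) and from 51.0 to 121 CPM in HI (median 61.0). The ranges did not overlap in either line, and the log2 fold change reached 1.60 ± 0.18 in LRT, against 0.90 ± 0.18 in HRT plantaris. In LRT soleus, Fbxo31 read 19.1 to 27.8 CPM in CTRL (median 24.2) and 28.4 to 43.8 CPM in HI (median 39.9). In HRT soleus, Fbxo31 read 17.9 to 34.7 CPM in CTRL (median 20.7) and 26.1 to 42.9 CPM in HI (median 32.9). Fbxo31 rose in soleus of both lines, by 0.70 ± 0.18 in LRT (edgeR adjusted p = 0.0078) and by 0.61 ± 0.19 in HRT (edgeR adjusted p = 0.021). Only the LRT ranges were apart, and without replicate 1 of HRT HI the adjusted p in HRT was 0.083.

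Psmb3 and Psma5 are subunits of the 20S core of the proteasome. In LRT plantaris, Psmb3 read 51.5 to 58.4 CPM in CTRL (median 54.6) and 61.4 to 226 CPM in HI (median 92.8). In HRT plantaris, Psmb3 read 47.7 to 53.4 CPM in CTRL (median 50.2) and 45.4 to 133 CPM in HI (median 53.5). The LRT ranges did not overlap, while in HRT 3 HI libraries were above all CTRL libraries, replicates 1 and 4 by the most, and 2 were below. Psmb3 rose in LRT soleus, by 0.78 ± 0.25 (edgeR adjusted p = 0.029), and in HRT soleus the value was 0.29 ± 0.25. Psmb3 in LRT soleus lay between 41.5 and 53.9 CPM in CTRL, with a median of 49.1, and between 40.5 and 101 CPM in HI, with a median of 91.3. Psmb3 in HRT soleus lay between 38.1 and 46.3 CPM in CTRL, with a median of 43.7, and between 39.0 and 80.6 CPM in HI, with a median of 46.2. In LRT soleus 5 HI libraries were above and replicate 6 was below every CTRL library. The LRT soleus call was lost in 4 of 12 fits that left out 1 library, with adjusted p up to 0.084 without HI replicate 3. Psma5 had 1.15 ± 0.24 in LRT plantaris and 0.63 ± 0.25 in HRT plantaris, or 0.32 without HI replicate 4, and 0.47 ± 0.24 and -0.05 ± 0.24 in soleus. Kctd9, of the KCTD family of BTB-domain proteins, had 1.31 ± 0.24 in LRT and 0.52 ± 0.24 in HRT plantaris, or 0.29 without HRT HI replicate 4. In soleus Kctd9 had -0.17 ± 0.23 in LRT and -0.46 ± 0.24 in HRT, and neither passed the test although the HRT soleus HI range was wholly below the CTRL range.

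Both autophagy genes read higher in HI plantaris of both lines. Sqstm1 encodes p62, a receptor that binds ubiquitin-tagged cargo. In LRT plantaris, Sqstm1 read 371 to 537 CPM in CTRL (median 390.0) and 622 to 2117 CPM in HI (median 1099.5). In HRT plantaris, Sqstm1 read 345 to 401 CPM in CTRL (median 362) and 400.0 to 1361 CPM in HI (median 522). In LRT all 6 HI libraries were above all CTRL libraries, and in HRT 5 of 6 were. Sqstm1 in LRT soleus lay between 352 and 490.2 CPM in CTRL, with a median of 434, and between 415 and 1170.0 CPM in HI, with a median of 742. Sqstm1 in HRT soleus lay between 323 and 464 CPM in CTRL, with a median of 417, and between 369 and 627 CPM in HI, with a median of 424. In LRT soleus 5 of 6 HI libraries were above the CTRL range, with replicate 6 inside it, and in HRT soleus 2 of 6 were. Sqstm1 rose in LRT soleus, by 0.85 ± 0.25 (edgeR adjusted p = 0.018), with adjusted p of 0.056 and 0.093 without HI replicates 1 and 3. In HRT soleus its value was 0.11 ± 0.25 (edgeR adjusted p = 0.81). Plantaris values were 1.68 ± 0.25 in LRT and 0.98 ± 0.25 in HRT. Gabarapl1 encodes a protein of the ATG8 family that is joined to the membrane of the autophagosome. Gabarapl1 values in LRT plantaris ran from 50.8 to 75.9 CPM in CTRL (median 53.9) and from 72.0 to 242 CPM in HI (median 152). Gabarapl1 values in HRT plantaris ran from 46.5 to 65.0 CPM in CTRL (median 50.7) and from 61.8 to 193 CPM in HI (median 87.3). In both lines 5 of 6 HI libraries lay above the CTRL range, and the log2 fold change reached 1.50 ± 0.26 in LRT, against 0.98 ± 0.26 in HRT. In LRT soleus, Gabarapl1 read 70.0 to 170.2 CPM in CTRL (median 82.4) and 88.8 to 202 CPM in HI (median 131). In HRT soleus, Gabarapl1 read 51.0 to 97.4 CPM in CTRL (median 87.0) and 81.6 to 128 CPM in HI (median 94.5). In each line 2 of 6 HI libraries were above the CTRL range, and the soleus values were 0.55 ± 0.25 and 0.28 ± 0.26, which did not pass the test, although without CTRL replicate 3 the LRT one was 0.82 and called (edgeR adjusted p = 0.03).

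Of the 6 transcription regulators, 4 read higher and 2 lower in HI plantaris of both lines, and none passed the test in soleus (edgeR), where 3 were higher and 3 lower in each line. Runx1, a transcription factor known to rise in denervated muscle, had the largest value. In LRT plantaris, Runx1 read 1.42 to 3.26 CPM in CTRL (median 2.39) and 3.62 to 61.1 CPM in HI (median 8.98). In HRT plantaris, Runx1 read 1.62 to 3.07 CPM in CTRL (median 2.12) and 1.96 to 28.8 CPM in HI (median 3.96). The LRT ranges did not overlap, with replicates 1 and 3 far above the other HI libraries, and in HRT replicate 4 stood alone at the top. Log2 fold changes were 3.15 ± 0.57 in LRT and 1.73 ± 0.58 in HRT plantaris, or 0.80 in HRT without replicate 4. Runx1 in LRT soleus lay between 3.03 and 5.74 CPM in CTRL, with a median of 3.84, and between 3.23 and 20.7 CPM in HI, with a median of 5.64. Runx1 in HRT soleus lay between 3.55 and 10.3 CPM in CTRL, with a median of 4.73, and between 5.02 and 8.94 CPM in HI, with a median of 5.82. The soleus ranges overlapped in both lines, with 1.04 ± 0.54 in LRT and 0.34 ± 0.56 in HRT. Replicate 5 of LRT soleus HI read 20.7 CPM and the others 3.23 to 9.4 CPM. Myc, a growth-related transcription factor, followed in size in LRT plantaris. Myc values in LRT plantaris ran from 2.44 to 4.22 CPM in CTRL (median 2.92) and from 4.72 to 26.4 CPM in HI (median 9.76). Myc values in HRT plantaris ran from 2.80 to 7.41 CPM in CTRL (median 3.86) and from 3.40 to 29.1 CPM in HI (median 4.66). In LRT plantaris the ranges did not overlap, and in HRT plantaris replicates 1 and 4 were above all CTRL libraries. The values were 2.11 ± 0.43 and 1.04 ± 0.43 in plantaris, the second 0.21 without HI replicate 4, and -0.03 ± 0.43 and -0.29 ± 0.44 in soleus, LRT first.

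Foxo1, one of the FoxO factors of the atrophy program, had nearly the same plantaris value in both lines, 1.15 ± 0.24 in LRT and 1.12 ± 0.25 in HRT, although the LRT one was 0.75 without HI replicate 5. In soleus Foxo1 had 0.14 ± 0.25 and 0.13 ± 0.25. Tp63, a member of the p53 family, also had alike plantaris values, 1.24 ± 0.29 in LRT and 1.31 ± 0.30 in HRT, and 0.71 ± 0.30 and 0.48 ± 0.31 in soleus. Hdac9, a class IIa histone deacetylase, was the regulator with the lowest value, -1.79 ± 0.26 in LRT plantaris and -0.98 ± 0.25 in HRT plantaris, without overlap of HI and CTRL in either line. In soleus its values were -0.42 ± 0.24 and -0.21 ± 0.25. Ppargc1a encodes PGC-1α, a coactivator of mitochondrial genes. It had -1.01 ± 0.28 in LRT plantaris and -0.38 ± 0.28 in HRT plantaris, against -0.29 ± 0.28 and -0.05 ± 0.28 in soleus. In HRT plantaris HI, replicate 4 read 8.70 CPM and the others 11.5 to 34.2 CPM.

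**Figure D2:**
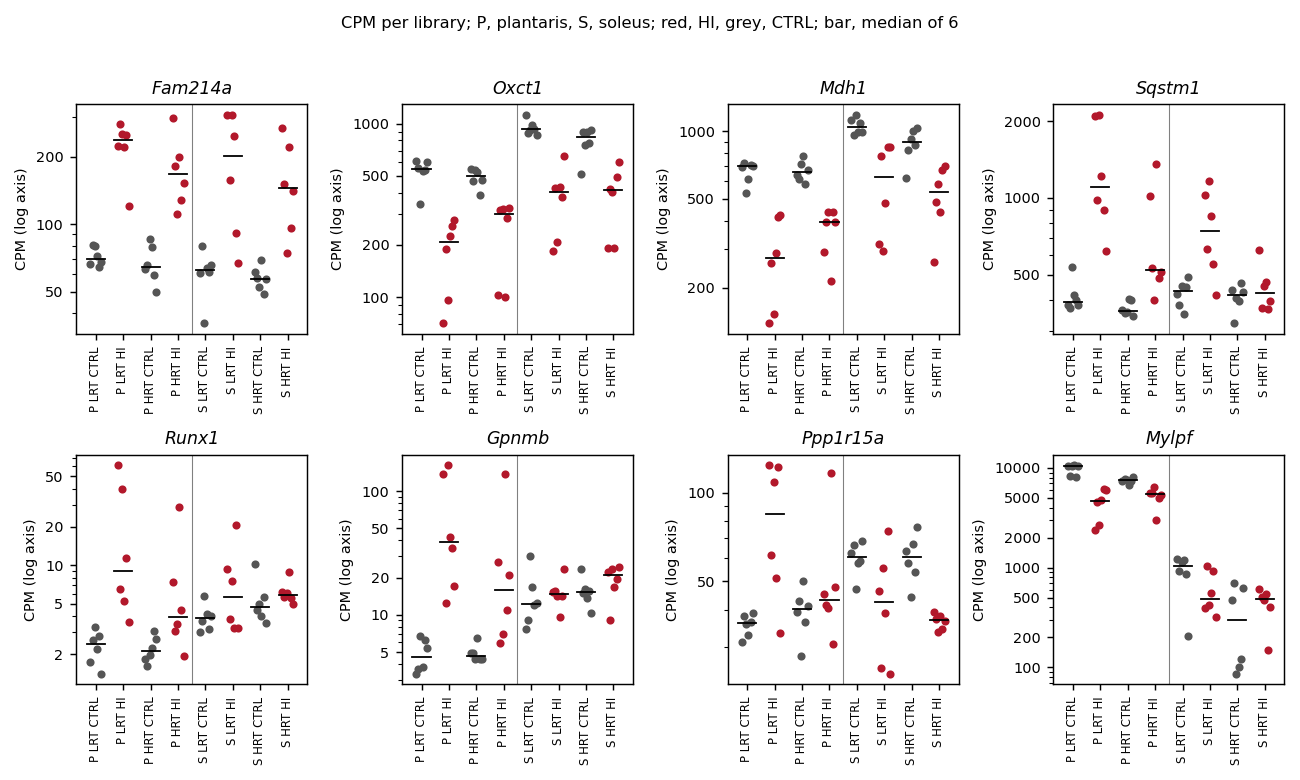
CPM of 8 of the genes in each library (y axis, log scale) by group (x axis, P for plantaris and S for soleus, HI in red, CTRL in grey, bar at the median of 6). Fam214a and Oxct1 shift in all 4 comparisons, whereas Gpnmb spans 12.5 to 162 CPM in LRT plantaris HI and overlaps its CTRL range in soleus.

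The 3 stress and polyamine genes differed in direction. Sat1 encodes spermidine/spermine acetyltransferase, which starts the breakdown of polyamines. In LRT plantaris, Sat1 read 19.2 to 27.3 CPM in CTRL (median 19.6) and 30.1 to 241 CPM in HI (median 58.0). In HRT plantaris, Sat1 read 13.5 to 20.9 CPM in CTRL (median 17.6) and 26.4 to 105 CPM in HI (median 31.8). HI and CTRL did not overlap in either line, although replicate 6 of LRT HI was close to the highest CTRL library. Sat1 in LRT soleus lay between 12.1 and 18.1 CPM in CTRL, with a median of 14.6, and between 14.1 and 37.5 CPM in HI, with a median of 22.2. Sat1 in HRT soleus lay between 9.10 and 15.2 CPM in CTRL, with a median of 12.1, and between 13.2 and 23.9 CPM in HI, with a median of 17.2. In soleus 4 of 6 HI libraries in LRT and 5 of 6 in HRT were above the CTRL range, and the values of 0.69 ± 0.34 and 0.58 ± 0.35 did not pass the test, although the LRT one was called with each muscle fitted alone (edgeR adjusted p = 0.032). Plantaris values were 2.38 ± 0.35 in LRT and 1.49 ± 0.35 in HRT. Ppp1r15a encodes GADD34, which directs a phosphatase to the translation factor eIF2α and ends the stress-induced block of translation. Ppp1r15a values in LRT plantaris ran from 31.3 to 39.2 CPM in CTRL (median 36.1) and from 33.3 to 124 CPM in HI (median 84.9). Ppp1r15a values in HRT plantaris ran from 28.0 to 50.1 CPM in CTRL (median 40.4) and from 30.7 to 117 CPM in HI (median 43.4). In LRT plantaris 5 of 6 HI libraries were above the CTRL range, and in HRT plantaris replicate 4 alone was, with log2 fold changes of 1.23 ± 0.26 and 0.46 ± 0.26, the second 0.083 without that library. In LRT soleus, Ppp1r15a read 47.0 to 68.8 CPM in CTRL (median 60.4) and 24.4 to 74.3 CPM in HI (median 42.7). In HRT soleus, Ppp1r15a read 44.4 to 76.4 CPM in CTRL (median 60.7) and 33.6 to 39.3 CPM in HI (median 37.1). In HRT soleus all 6 HI libraries were below all CTRL libraries, the reverse of the LRT plantaris direction. Ppp1r15a fell in HRT soleus, at -0.74 ± 0.26 (edgeR adjusted p = 0.046), and this call was lost in 11 of 12 fits that left out 1 library, with adjusted p over all alternatives between 0.029 and 0.11. In LRT soleus the value was -0.45 ± 0.26 (edgeR adjusted p = 0.24). Hspb1, a small heat shock protein of the Z-disc region, entered through HRT soleus, where its value was -0.91 ± 0.39. Its values in comparisons that did not choose it were 0.77 ± 0.38 in LRT plantaris, -0.01 ± 0.39 in HRT plantaris and -0.36 ± 0.38 in LRT soleus. None passed the edgeR test (adjusted p = 0.13, 1.0 and 0.58), although with library totals the LRT plantaris value was called (0.024). Replicate 4 of HRT plantaris HI read 419 CPM and the others 63.25 to 163.2 CPM. Replicate 5 of LRT soleus HI read 575.6 CPM and the others 146 to 230.4 CPM.

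Of the 5 glycolytic genes, the 4 enzymes Pfkm, Pgam2, Pkm and Ldha read lower in HI plantaris of both lines, and none of these 4 passed the test in soleus. Ldha is the muscle form of lactate dehydrogenase. In LRT plantaris, Ldha read 3406 to 4430.4 CPM in CTRL (median 3738) and 319 to 2374 CPM in HI (median 1187). In HRT plantaris, Ldha read 2663 to 3311 CPM in CTRL (median 2975) and 617 to 2037 CPM in HI (median 1619). In both lines every HI library was below every CTRL library, with LRT replicates 1 and 3 and HRT replicate 4 lowest. Ldha in LRT soleus lay between 346 and 573 CPM in CTRL, with a median of 521, and between 169 and 469 CPM in HI, with a median of 386. Ldha in HRT soleus lay between 192 and 381 CPM in CTRL, with a median of 218, and between 183 and 358 CPM in HI, with a median of 241. In soleus 2 of 6 HI libraries in each line were below the CTRL range. The log2 fold changes of Ldha were -1.60 ± 0.32 and -0.95 ± 0.32 in LRT and HRT plantaris and -0.54 ± 0.32 and 0.04 ± 0.32 in soleus. Pgam2 is the muscle phosphoglycerate mutase. Pgam2 values in LRT plantaris ran from 2232 to 2805 CPM in CTRL (median 2504) and from 185 to 1427 CPM in HI (median 787). Pgam2 values in HRT plantaris ran from 1915 to 2165 CPM in CTRL (median 1991) and from 401 to 1305 CPM in HI (median 1054). HI and CTRL were again fully apart, with -1.67 ± 0.30 in LRT and -1.07 ± 0.29 in HRT plantaris. In LRT soleus, Pgam2 read 388 to 654 CPM in CTRL (median 487) and 285 to 664 CPM in HI (median 498). In HRT soleus, Pgam2 read 250.0 to 392 CPM in CTRL (median 279.6) and 245 to 443 CPM in HI (median 340.2). In soleus the medians of HI were not below those of CTRL, and the values were -0.05 ± 0.29 in LRT and 0.20 ± 0.29 in HRT. Pkm, pyruvate kinase, had -1.14 ± 0.20 and -0.73 ± 0.20 in LRT and HRT plantaris and -0.13 ± 0.20 and 0.11 ± 0.20 in soleus. Pfkm, the muscle phosphofructokinase, had -0.92 ± 0.20 and -0.43 ± 0.20 in plantaris and -0.04 ± 0.20 and 0.21 ± 0.20 in soleus. Pfkfb3, which makes the activator of phosphofructokinase, went the other way. It entered through HRT soleus, at 1.25 ± 0.31, and its LRT soleus value of 0.82 ± 0.30 was not called (edgeR adjusted p = 0.058), nor were 0.13 ± 0.29 and 0.46 ± 0.29 in plantaris. DESeq2 called the LRT soleus change, at adjusted p = 0.038.

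The 4 mitochondrial and shuttle genes read lower in HI in all 4 comparisons, with a median log2 fold change of -1.15 in LRT plantaris, -0.82 in HRT plantaris, -0.74 in LRT soleus and -0.61 in HRT soleus. Mdh1 and Ndufs1 were called lower in soleus of both lines. Oxct1 encodes the enzyme that lets muscle burn ketone bodies. In LRT plantaris, Oxct1 read 344 to 610.4 CPM in CTRL (median 547) and 70.6 to 277 CPM in HI (median 207). In HRT plantaris, Oxct1 read 390.0 to 544 CPM in CTRL (median 502) and 99.6 to 325 CPM in HI (median 303). In plantaris all HI libraries lay below all CTRL libraries, with -1.52 ± 0.31 in LRT and -1.02 ± 0.31 in HRT. Oxct1 in LRT soleus lay between 859 and 1124 CPM in CTRL, with a median of 925, and between 185 and 647 CPM in HI, with a median of 403. Oxct1 in HRT soleus lay between 509.5 and 923 CPM in CTRL, with a median of 835, and between 191 and 600.2 CPM in HI, with a median of 412. The soleus ranges were apart in LRT, and in HRT 5 of 6 HI libraries were below the CTRL range, with replicates 1 and 4 lowest. The soleus log2 fold changes were -1.32 ± 0.31 in LRT and -1.04 ± 0.31 in HRT. No p is given for them because the soleus tables also list Oxct1.

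Mdh1 is the cytosolic malate dehydrogenase of the malate-aspartate shuttle. In LRT plantaris, Mdh1 read 533 to 720.0 CPM in CTRL (median 698) and 139 to 422 CPM in HI (median 273). In HRT plantaris, Mdh1 read 585 to 779.9 CPM in CTRL (median 659) and 214 to 437 CPM in HI (median 394). HI and CTRL were fully apart in both lines, and the log2 fold change reached -1.26 ± 0.25 in LRT, against -0.90 ± 0.25 in HRT. Mdh1 in LRT soleus lay between 964 and 1187 CPM in CTRL, with a median of 1046, and between 293 and 853 CPM in HI, with a median of 626. Mdh1 in HRT soleus lay between 621 and 1040.2 CPM in CTRL, with a median of 901, and between 260.0 and 703 CPM in HI, with a median of 534. In LRT soleus the ranges did not overlap, and in HRT soleus 4 of 6 HI libraries were below the CTRL range. Mdh1 fell in LRT soleus, at -0.83 ± 0.24 (edgeR adjusted p = 0.019), and in HRT soleus, at -0.74 ± 0.25 (edgeR adjusted p = 0.034). The LRT call was lost without HI replicate 1 (adjusted p = 0.064) or 3 (0.074), and the HRT call was lost in 7 of 12 such fits, with adjusted p up to 0.13 without HI replicate 1.

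Ndufs1 and Ndufb8 are subunits of complex I of the respiratory chain. Ndufs1 values in LRT plantaris ran from 438 to 649 CPM in CTRL (median 609.7) and from 181 to 381 CPM in HI (median 305). Ndufs1 values in HRT plantaris ran from 552 to 644 CPM in CTRL (median 602) and from 273 to 423 CPM in HI (median 372). The plantaris ranges were apart in both lines, with -1.01 ± 0.16 in LRT and -0.75 ± 0.16 in HRT. In LRT soleus, Ndufs1 read 616 to 687 CPM in CTRL (median 629) and 293 to 541 CPM in HI (median 396). In HRT soleus, Ndufs1 read 401 to 643 CPM in CTRL (median 605) and 288 to 456 CPM in HI (median 422). In LRT soleus all 6 HI libraries, and in HRT soleus 3 of 6, were below the CTRL range. Ndufs1 fell in LRT soleus, at -0.65 ± 0.15 (edgeR adjusted p = 0.0036), and in HRT soleus, at -0.48 ± 0.16 (edgeR adjusted p = 0.029). No single library decided the LRT call, whereas the HRT call was lost in 6 of 12 fits that left out 1, with adjusted p up to 0.12. With each muscle fitted alone, the HRT soleus calls of Ndufs1 and Mdh1 were lost (edgeR adjusted p = 0.055 and 0.067). Ndufb8 had -1.05 ± 0.19 in LRT plantaris and -0.67 ± 0.19 in HRT plantaris, without overlap in either line. Its soleus values of -0.45 ± 0.19 and -0.43 ± 0.19 did not pass the edgeR test (adjusted p = 0.11 and 0.12). With the replicate block, which joins different rats by number here, the LRT one did (0.046).

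The 4 sarcomere and calcium genes read lower in HI plantaris of both lines, and none passed the test in soleus (edgeR). Jph2, a junctophilin, holds the sarcoplasmic reticulum next to the T-tubule. In LRT plantaris, Jph2 read 81.4 to 108 CPM in CTRL (median 99.9) and 8.30 to 64.9 CPM in HI (median 45.4). In HRT plantaris, Jph2 read 81.4 to 112 CPM in CTRL (median 97.7) and 19.4 to 76.3 CPM in HI (median 50.6). Jph2 in LRT soleus lay between 51.6 and 63.7 CPM in CTRL, with a median of 57.2, and between 19.3 and 44.5 CPM in HI, with a median of 29.8. The HI and CTRL ranges were apart in all of these. Jph2 in HRT soleus lay between 47.1 and 66.6 CPM in CTRL, with a median of 49.6, and between 21.8 and 42.2 CPM in HI, with a median of 36.2. In HRT soleus too every HI library was below every CTRL library. The log2 fold changes were -1.37 ± 0.32 and -1.02 ± 0.31 in plantaris and -0.86 ± 0.31 and -0.59 ± 0.32 in soleus, LRT first. The soleus values did not pass the edgeR test, with adjusted p = 0.056 and 0.2. In LRT soleus Jph2 was called by DESeq2 (0.037), and by edgeR without RIN (0.044) and with each muscle fitted alone (0.0097). The replicate block also called it (edgeR adjusted p = 0.034), but there it joins different rats by number and is no pairing. Ldb3, a scaffold of the Z-disc, came next. Ldb3 values in LRT plantaris ran from 819.8 to 937 CPM in CTRL (median 887) and from 107 to 637 CPM in HI (median 426). Ldb3 values in HRT plantaris ran from 761 to 996 CPM in CTRL (median 935) and from 245 to 839 CPM in HI (median 547). In LRT plantaris the ranges were apart, and in HRT plantaris 4 of 6 HI libraries were below the CTRL range. In LRT soleus, Ldb3 read 866 to 1236 CPM in CTRL (median 1107) and 319 to 1092 CPM in HI (median 649.5). In HRT soleus, Ldb3 read 798 to 1929 CPM in CTRL (median 1048) and 392 to 984 CPM in HI (median 655). In soleus 5 of 6 HI libraries in LRT and 4 of 6 in HRT were below the CTRL range, and the values of -0.70 ± 0.32 and -0.69 ± 0.32 did not pass the test. Plantaris values of Ldb3 were -1.26 ± 0.32 in LRT and -0.72 ± 0.32 in HRT. Srl encodes sarcalumenin, a calcium-binding protein of the sarcoplasmic reticulum, and had -0.98 ± 0.18 and -0.40 ± 0.18 in plantaris and -0.12 ± 0.18 and 0.04 ± 0.18 in soleus.

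Mylpf encodes the fast regulatory light chain of myosin. In LRT plantaris, Mylpf read 8117 to 10666 CPM in CTRL (median 10474) and 2410.3 to 6112 CPM in HI (median 4641). In HRT plantaris, Mylpf read 6771 to 8067 CPM in CTRL (median 7495) and 3001 to 6422 CPM in HI (median 5493). Both HI ranges lay below the CTRL ranges, with -1.22 ± 0.39 in LRT and -0.60 ± 0.39 in HRT plantaris. Mylpf in LRT soleus lay between 207 and 1213 CPM in CTRL, with a median of 1025, and between 321 and 1039 CPM in HI, with a median of 485. Mylpf in HRT soleus lay between 86.1 and 698 CPM in CTRL, with a median of 296, and between 150.1 and 612 CPM in HI, with a median of 488. The soleus ranges overlapped, with values of opposite sign in the lines, -0.51 ± 0.39 in LRT and 0.47 ± 0.40 in HRT, neither of which passed the test. In CTRL soleus the Mylpf ranges of the lines overlapped too, and replicate 6 of LRT CTRL, at 207 CPM, was the lowest of its group by far.

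The remaining 6 genes act at membranes, in lipid synthesis or in other roles. Gpnmb encodes a membrane glycoprotein that macrophages and osteoclasts are known for, and it had the largest log2 fold change of the 37. In LRT plantaris, Gpnmb read 3.35 to 6.73 CPM in CTRL (median 4.60) and 12.5 to 162 CPM in HI (median 38.6). In HRT plantaris, Gpnmb read 4.36 to 6.52 CPM in CTRL (median 4.64) and 5.89 to 138 CPM in HI (median 16.0). In LRT plantaris all 6 HI libraries were above all CTRL libraries, with replicates 1 and 3 far above the rest, and in HRT 5 of 6 were, with replicate 4 alone near the LRT maximum. The values were 3.77 ± 0.58 in LRT and 2.73 ± 0.57 in HRT, or 1.54 in HRT without replicate 4. Gpnmb in LRT soleus lay between 7.65 and 30.1 CPM in CTRL, with a median of 12.3, and between 9.54 and 23.7 CPM in HI, with a median of 14.7. Gpnmb in HRT soleus lay between 10.3 and 23.6 CPM in CTRL, with a median of 15.3, and between 9.10 and 24.3 CPM in HI, with a median of 20.8. The soleus ranges overlapped, with 0.11 ± 0.52 and 0.39 ± 0.53. Of the macrophage markers chosen, 2 of 20 have an identifier here, the chemokines Ccl2 and Ccl7. A DEG table gave it, so both were chosen by their response. Their summed CPM was 1.09 to 3.12 in LRT plantaris CTRL and 1.90 to 5.42 in HI. The sum was 1.23 to 2.93 in HRT plantaris CTRL and 1.33 to 8.33 in HI. The libraries with the most Gpnmb had the highest sums of their groups, 5.42 and 4.30 in replicates 1 and 3 of LRT plantaris HI and 8.33 in replicate 4 of HRT plantaris HI. Other libraries did not keep this order. In LRT plantaris HI, replicate 4 had 42.3 CPM of Gpnmb and a sum of 2.15, and replicate 6 had 17.1 CPM and 3.95. In HRT plantaris HI, replicate 2 had the lowest Gpnmb, 5.89 CPM, and a sum of 3.92, whereas replicate 1 had 26.5 CPM and 3.46. In soleus, where Gpnmb was not called, the medians of that sum were 1.49 in CTRL and 2.84 in HI of LRT and 1.48 and 4.45 in HRT. The share of macrophages in the Gpnmb values was not tested.

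Fam214a (Atosa in RefSeq) had log2 fold changes between 1.43 and 1.66 in all 4 comparisons. In LRT plantaris, Fam214a read 64.5 to 80.6 CPM in CTRL (median 70.1) and 121 to 280.0 CPM in HI (median 237). In HRT plantaris, Fam214a read 50.1 to 85.9 CPM in CTRL (median 64.2) and 111 to 298 CPM in HI (median 168). Fam214a in LRT soleus lay between 36.2 and 79.8 CPM in CTRL, with a median of 62.3, and between 67.0 and 308 CPM in HI, with a median of 203. In plantaris of both lines the HI range lay above the CTRL range, and in LRT soleus 5 of 6 HI libraries did, with replicate 6 inside the CTRL range. Fam214a in HRT soleus lay between 48.7 and 69.4 CPM in CTRL, with a median of 57.0, and between 74.5 and 268 CPM in HI, with a median of 145. In HRT soleus all 6 HI libraries were above the CTRL range. By comparison they were 1.66 ± 0.29 in LRT plantaris, 1.43 ± 0.29 in HRT plantaris, 1.66 ± 0.29 in LRT soleus and 1.44 ± 0.29 in HRT soleus. No test is given for these because all 4 tables list Fam214a. Cds2, a CDP-diacylglycerol synthase, had 1.46 ± 0.28 and 0.81 ± 0.29 in LRT and HRT plantaris, or 0.21 in HRT without HI replicate 4, and 0.24 ± 0.28 and -0.11 ± 0.28 in soleus. Itm2a, a transmembrane protein, had -1.35 ± 0.25 and -0.73 ± 0.24 in plantaris and -0.46 ± 0.24 and -0.57 ± 0.25 in soleus. Cpe, a carboxypeptidase that processes prohormones, had -1.09 ± 0.18 and -0.63 ± 0.18 in plantaris and -0.29 ± 0.17 and -0.28 ± 0.18 in soleus. Ptpn3, a tyrosine phosphatase, had -1.10 ± 0.39 and -0.95 ± 0.38 in plantaris and -0.43 ± 0.38 and -0.31 ± 0.38 in soleus. None of Cds2, Itm2a, Cpe and Ptpn3 passed the edgeR test in soleus, although Itm2a in HRT soleus was called without RIN (adjusted p = 0.048) and without CTRL replicate 4 (0.043).

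**Figure D3:**
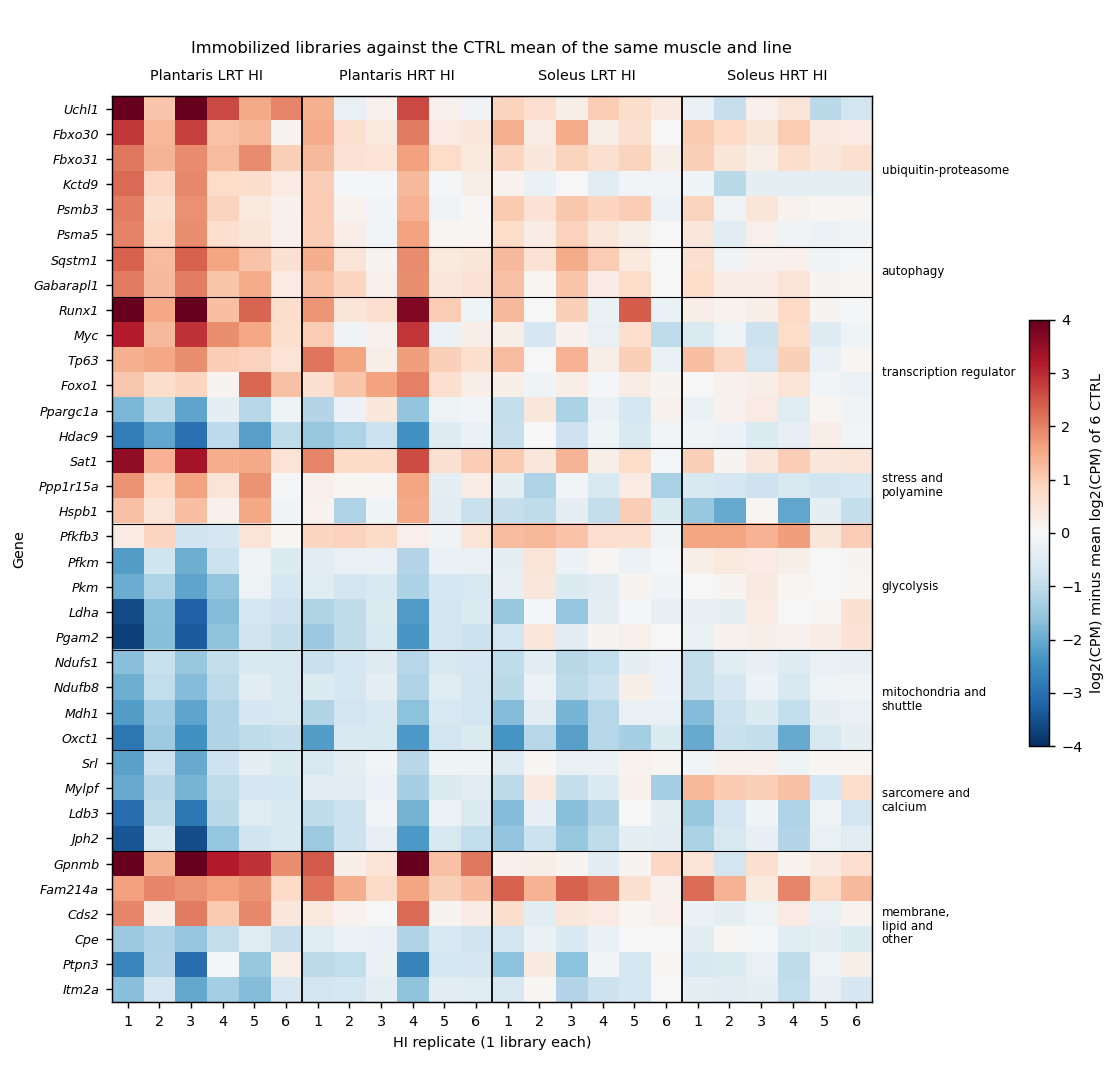
Log2 ratio of each HI library to the CTRL mean of its muscle and line (colour, limited at 4 in either direction) for 36 of the 37 genes (y axis) and 24 HI libraries (x axis). LRT plantaris replicates 1 and 3 and HRT plantaris replicate 4 show the strongest colours, LRT soleus replicates 1 and 3 are the strongest of the soleus libraries, and LRT soleus replicates 2 and 6 and most HRT soleus libraries are pale.

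The immobilized rats of a group differed widely, and the same libraries were extreme for most of the genes. Among the 6 LRT plantaris HI libraries, replicate 1 lay farthest along the LRT plantaris direction for 21 of 37 genes and replicate 3 for 11, whereas replicate 6 lay least far for 21. Median log2 ratios to the CTRL mean over the 20 higher and the 17 lower genes were 2.06 and -2.25 for replicate 1 and 0.54 and -0.64 for replicate 6. In HRT plantaris replicate 4 was farthest for 34 of 37 genes, with medians of 1.76 and -1.61, and the medians of replicate 3 were 0.23 and -0.36. In LRT soleus replicates 1 and 3 were farthest for 14 genes each, and replicates 6 and 2 least far for 16 and 13. In HRT soleus replicate 1 was farthest for 17 genes and replicate 4 for 11. RIN was 8.3 in replicates 1 and 3 of LRT plantaris HI and 8.6 in replicate 6, and 8.5 in replicate 4 of HRT plantaris HI. The summed CPM of 7 fibroblast markers was 257 and 222 in replicates 1 and 3 of LRT plantaris HI, 232 to 404 in replicates 2, 4 and 5, and 778 in replicate 6. That of 6 muscle fiber markers was 5733 and 6336 in replicates 1 and 3 of LRT plantaris HI and 10396 to 14461 in the others. It was 7100 in replicate 4 of HRT plantaris HI and 11521 to 13636 in the others. Mylpf, 1 of the 37 genes, is among the 6 and gave 2410.3 and 2646.5 CPM of the first 2 sums, so this sum partly restates the genes themselves. The markers were read only where a DEG table lists them. The part of these cells in the spread was not tested.

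**Figure D4:**
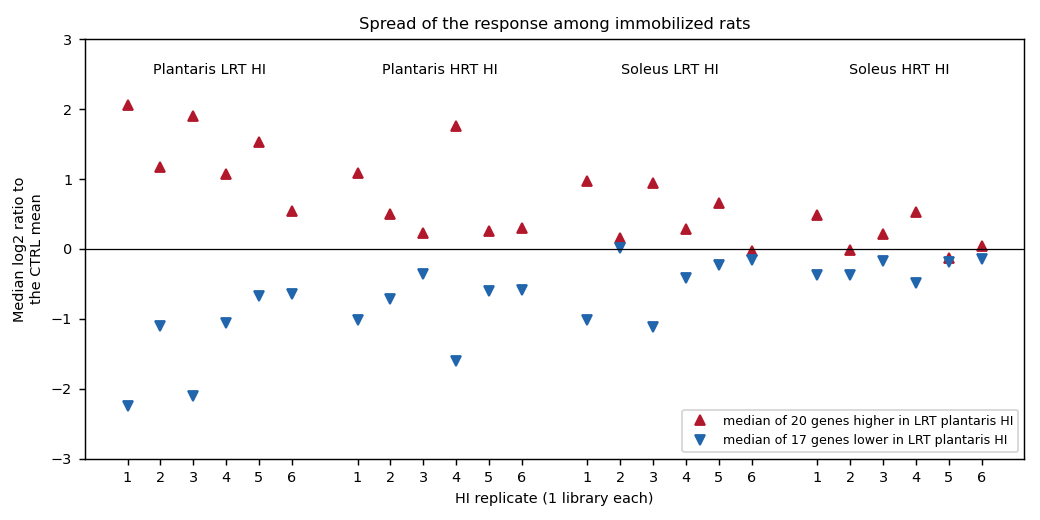
Median log2 ratio to the CTRL mean (y axis) over the 20 genes that were higher and the 17 that were lower in LRT plantaris HI, for each HI library (x axis, replicates 1 to 6 of each muscle and line). The medians of LRT plantaris replicates 1 and 3 (2.06 and 1.91 for the 20 genes) are farthest from 0, and 5 of the 6 HRT plantaris libraries lie nearer to 0 than replicate 4 (1.76).

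The soleus comparisons asked whether genes picked for plantaris also moved in the slower muscle, since 35 of the 37 entered through LRT plantaris and did not need soleus values to enter. The soleus libraries come from the same rats, and LRT HI replicates 1 and 3 were far along in both muscles, so they are not free of the choice by plantaris values. Fam214a and Oxct1 are listed for soleus of both lines and Hspb1 and Pfkfb3 for HRT soleus, so these were set aside from the counts. Of the 35 genes not listed for LRT soleus, edgeR called 5 (14.3%), near the 13.9% of all tested genes, and of the 33 not listed for HRT soleus it called 4 (12.1%), beside 16.2%. These shares are no result about the genes as a set. In LRT soleus Fbxo31, Psmb3 and Sqstm1 were higher, beside 7.36% of all genes, and Mdh1 and Ndufs1 lower, beside 6.58%. In HRT soleus Fbxo31 was higher, beside 7.95%, and Mdh1, Ndufs1 and Ppp1r15a lower, beside 8.23%. HI and CTRL did not overlap for 4 of the 35 genes in LRT soleus, beside 3.88% of all genes, and for 4 of the 33 in HRT soleus, beside 4.56%. Median absolute log2 fold changes of these genes were 0.46 in LRT soleus and 0.30 in HRT soleus, against 0.21 and 0.22 over all tested genes. The following counts of signs include Fam214a, Oxct1, Hspb1 and Pfkfb3. Of the 20 genes higher in LRT plantaris HI, 16 read higher in LRT soleus HI (median 0.57). In HRT soleus HI 13 of the 20 did (median 0.21). All 17 genes lower in LRT plantaris HI were lower in LRT soleus HI (median -0.45), and 11 of 17 in HRT soleus HI (median -0.28). With Fam214a and Oxct1 counted, 7 of 37 genes were called in LRT soleus, 4 without HI replicate 1 or HI replicate 3 and 11 without HI replicate 6. In HRT soleus 6 of the 35 genes listed for plantaris were called, 1 without HI replicate 1 and 3 without HI replicate 2, HI replicate 4, CTRL replicate 5 or CTRL replicate 6. The difference between the muscles in the response to HI was not tested.

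Log2 fold changes were larger in size in LRT than in HRT for 35 of 37 genes in plantaris, where listing in LRT fixed part of this. In soleus this held for 28 of 37. The share over all tested genes was not computed, and their median absolute log2 fold change in soleus was 0.21 in LRT and 0.22 in HRT. The 37 genes move together and 35 were chosen through LRT plantaris of the same rats, so nothing is read from the soleus count. The interaction of line and treatment (DELTA, the LRT log2 fold change less the HRT one) called none of the genes in either muscle by edgeR, where it called 0.0% of all tested genes in plantaris and 0.0295% in soleus. DESeq2 and limma also called none. In plantaris DELTA is a description for the 35 listed genes, and it was largest for Uchl1, at 1.89 ± 0.74, and Runx1, at 1.43 ± 0.78. An unadjusted p under 0.05 was found for 6.25% of all tested genes in plantaris, where 6 of the 37 had one and nothing is read from it, and for 9.67% in soleus. In soleus only Sqstm1 of the 37 had one, at 0.74 ± 0.35 (edgeR adjusted p = 0.49), with a 95% interval of 0.06 to 1.43. For Fbxo31, called in soleus of both lines, the interval of DELTA in soleus was -0.40 to 0.59, and for Mdh1 -0.76 to 0.58.

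Without immobilization, 1 call in the 37 genes was made between the lines. In CTRL plantaris none of the 37 was called by edgeR, DESeq2 or limma, beside 0.525% of all tested genes by edgeR, and 1 had an unadjusted p under 0.05 (Tp63, 0.70 ± 0.30 as LRT against HRT), beside 10.7% of all genes. Ranges did not overlap for 4 genes there, Ldha, Mylpf, Pgam2 and Srl, each higher in LRT, beside 2.69% of all genes. The LRT plantaris CTRL libraries also served to list 35 of the 37 genes, so these plantaris values are a description. In CTRL soleus this held for Ndufb8 and Srl, also higher in LRT, beside 2.0%. In CTRL soleus edgeR called 1 gene, beside 1.45% of all tested genes. Mylpf was higher in LRT, by 1.46 ± 0.39 (edgeR adjusted p = 0.047), and 7 of the 37 had an unadjusted p under 0.05, beside 15.0% of all genes. The Mylpf call was lost in 9 of 12 fits that left out 1 library and had adjusted p between 0.011 and 0.2 over all alternatives. DESeq2 called Mylpf and Ldha in CTRL soleus. All 5 glycolytic genes read higher in LRT than in HRT in both muscles of CTRL rats, and edgeR called none of them. Their medians were 0.33 in plantaris and 0.60 in soleus. The HRT soleus CTRL libraries also served to list Pfkfb3.

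**Figure D5:**
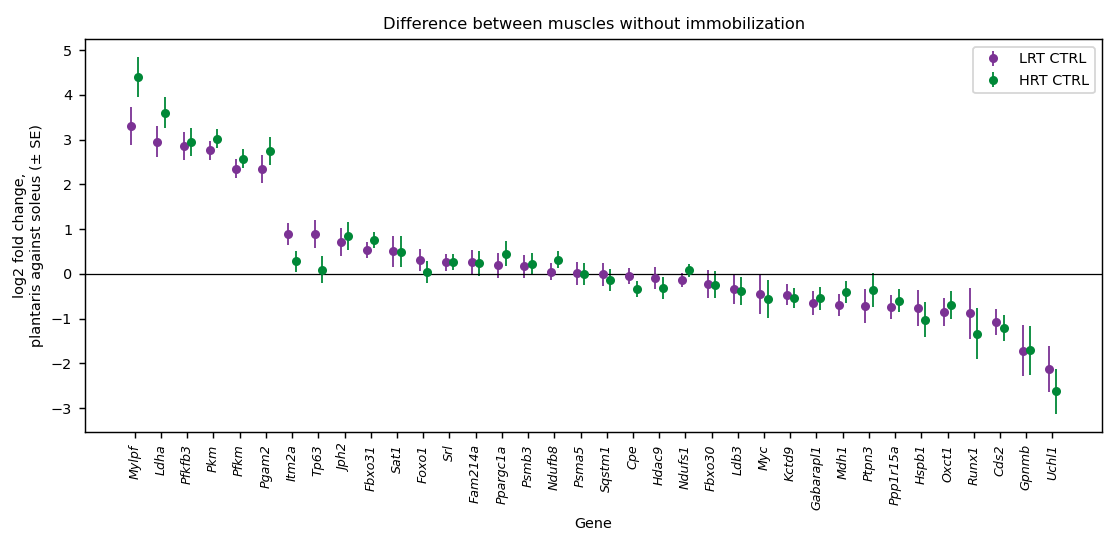
Log2 fold change of plantaris against soleus in CTRL rats (y axis, ± SE, 6 libraries against 6) for 36 of the 37 genes (x axis), with LRT and HRT as separate points. Mylpf and the 5 glycolytic genes lie highest, between 2.35 and 4.40, and Uchl1 and Gpnmb lie lowest.

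Without immobilization, Mylpf and the 5 glycolytic genes were higher in plantaris than in soleus of both lines, and Uchl1, Gpnmb and Cds2 were lower. In LRT CTRL 15 of 37 genes (40.5%) were called between plantaris and soleus, beside 32.6% of all tested genes, 9 of them higher in plantaris (beside 17.0%) and 6 lower (beside 15.6%). In HRT CTRL 12 of 37 (32.4%) were called, beside 38.8%, 8 higher in plantaris (beside 18.9%) and 4 lower (beside 19.9%), so the shares of calls lie near those of all genes. The 10 genes called in both lines were Cds2, Fbxo31, Gpnmb, Ldha, Mylpf, Pfkfb3, Pfkm, Pgam2, Pkm and Uchl1. Ldha was higher by 2.96 ± 0.34 in LRT (edgeR adjusted p = 2.2e-09) and 3.60 ± 0.35 in HRT (edgeR adjusted p = 1.9e-11), and its CTRL libraries lay at 3406 to 4430.4 CPM (median 3738) in plantaris and 346 to 573 CPM (median 521) in soleus of LRT. Pfkm, Pgam2, Pkm and Pfkfb3 had log2 fold changes between 2.35 and 3.03. Mylpf, the fast light chain, was higher by 3.32 ± 0.43 in LRT (edgeR adjusted p = 2.9e-08) and 4.40 ± 0.44 in HRT (edgeR adjusted p = 6.5e-11).

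Of the genes lower in plantaris, Uchl1 had -2.12 ± 0.51 in LRT (edgeR adjusted p = 0.0011) and -2.62 ± 0.51 in HRT (edgeR adjusted p = 4.6e-05), Gpnmb -1.72 ± 0.57 and -1.71 ± 0.54, and Cds2 -1.08 ± 0.29 and -1.21 ± 0.28. Fbxo31 was higher in plantaris, by 0.54 ± 0.19 in LRT and 0.75 ± 0.18 in HRT. In LRT alone Mdh1 (-0.69 ± 0.25), Oxct1 (-0.85 ± 0.31) and Ppp1r15a (-0.73 ± 0.27) were called lower and Itm2a (0.90 ± 0.25) and Tp63 (0.89 ± 0.31) higher, and in HRT alone Hspb1 (-1.02 ± 0.39) was called lower and Jph2 (0.84 ± 0.31) higher. The LRT calls of Mdh1, Oxct1 and Ppp1r15a were lost in 4, 5 and 6 of 12 fits that left out 1 library, and with library totals all 3 were called in HRT as well (edgeR adjusted p = 0.037, 0.017 and 0.02). The Hspb1 call was lost in 4 such fits and those of Tp63 and Jph2 in 1 each. The Tp63 and Jph2 calls were also lost with library totals, as was the LRT call of Fbxo31. The LRT call of Gpnmb was lost without soleus CTRL replicate 3 (edgeR adjusted p = 0.063). Limma did not call Oxct1 and Gpnmb in LRT (adjusted p = 0.052 and 0.053). Whether the muscle difference differs between the lines was not tested. With the replicate number as a block, which the LRT CTRL libraries allow, 19 genes were called in LRT CTRL, among them also Gabarapl1, Jph2, Kctd9 and Ptpn3. These comparisons share CTRL libraries with those of HI against CTRL.

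Other genes of the same pathways were read only where a DEG table gives them an identifier, so they too were chosen by their response and their counts are a description. Of all tested genes 28.7% were called in LRT plantaris, 11.0% in HRT plantaris, 13.9% in LRT soleus and 16.2% in HRT soleus. Of 16 other named atrogenes, 10 were called higher and 6 lower in LRT plantaris, and 8 and 4 in HRT plantaris. In soleus the counts were 5 and 2 in LRT and 3 and 3 in HRT. The ubiquitin ligases Fbxo32 and Trim63 had 2.51 ± 0.34 and 2.60 ± 0.37 in LRT plantaris and 0.74 ± 0.33 and 0.47 ± 0.36 in LRT soleus. Some lists that follow share genes with these 16 or with each other, among them Gadd45a, Hdac4 and Eno3. Of 19 genes of FoxO action and autophagy, 9 have an identifier, 6 of them among the 16, and 8 were called higher in LRT plantaris, 7 in HRT plantaris, 6 in LRT soleus and 3 in HRT soleus. The insulin receptor substrate Irs2 alone was called lower, in soleus of both lines, at -1.64 ± 0.40 and -1.88 ± 0.40. Among the others are Map1lc3b, an ATG8 protein, with 1.26 ± 0.18 in LRT and 0.78 ± 0.19 in HRT plantaris, and Ulk1, a kinase that starts autophagy, with 1.54 ± 0.28 and 0.91 ± 0.28. Both proteasome subunits with an identifier, of 12 genes chosen, were called higher in plantaris of both lines: Psmd8 by 1.62 ± 0.27 and 0.85 ± 0.27, and Psmd11 by 1.38 ± 0.23 and 0.79 ± 0.23. None of the 7 glycolytic genes outside the 37 with an identifier, of 14, was called in soleus, whereas 7 in LRT and 4 in HRT plantaris were called lower, such as Tpi1, triose-phosphate isomerase, with -1.47 ± 0.27 and -0.87 ± 0.26.

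Of 15 genes of the integrated stress response, 5 have an identifier, with 2 called higher and 1 lower in LRT soleus and 2 and 2 in HRT soleus. Chac1, an enzyme that breaks down glutathione, was higher in soleus, at 2.35 ± 0.40 in LRT and 2.51 ± 0.40 in HRT, as was Gadd45a, at 1.96 ± 0.46 and 1.67 ± 0.47. Atf3, a transcription factor of that response, was lower in soleus, at -2.63 ± 0.51 in LRT and -2.03 ± 0.51 in HRT, and Atf5, another, was called lower in HRT soleus, at -1.44 ± 0.27. Of 15 genes that respond to denervation, 5 have one, with 4 called higher in LRT plantaris, 2 in HRT plantaris, 2 in LRT soleus and 3 in HRT soleus, and none lower. Hdac4, a histone deacetylase, had 2.44 ± 0.44 in LRT and 2.02 ± 0.45 in HRT soleus, and the myogenic factor Myod1 0.62 ± 0.32 and 1.26 ± 0.33, the second of which was called. Myog, another myogenic factor, had 2.62 ± 0.45 in LRT and 1.26 ± 0.44 in HRT plantaris and 0.01 ± 0.42 and -0.14 ± 0.43 in soleus. Of 10 genes of oxidative metabolism outside the 37, 3 have one, and 2 were called lower in LRT plantaris, 1 in HRT plantaris and 1 in soleus of each line.

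Markers of cell types were also read only where a DEG table gives them an identifier. They too were chosen by their response, so their values are a description. Summed CPM of the 7 fibroblast markers with an identifier, of 13, was 627 to 1325 in CTRL and 222 to 778 in HI of LRT plantaris, and 668 to 1292 and 226 to 686 in HRT plantaris. In soleus it was 533 to 1110 in CTRL and 194 to 1026 in HI of LRT, and 537 to 2704 and 467 to 961 in HRT. At the median, 1 of the 7 was at 0 in LRT plantaris HI, Mfap4. Summed CPM of 6 muscle fiber markers, Mylpf among them, had medians of 20972 in CTRL and 10906 in HI of LRT plantaris and of 15091 and 11969 in HRT plantaris. The 5 hemoglobin and erythroid markers with an identifier, of 6, were called higher in HRT soleus, beside 7.95% of all tested genes. Their sum there was 10543 in HI replicate 5 and 219 to 1546 in the other HI libraries, against 159 to 607.0 in CTRL. The part of these cells in the values of the 37 genes was not tested. No marker of endothelium, Schwann cells or adipocytes was paired with an identifier in the tables used here, and of 7 satellite cell markers 1 was.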

How the data were processed

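RNA of rat plantaris and soleus was sequenced in 48 libraries, and the groups of 6 were taken from the labels. Per the study's methods and the submitters' processing notes, the authors quantified transcripts with Salmon 0.9.1 against the Ensembl annotation of Rnor_6.0 and used tximport to add them up by gene with a length correction. What they deposited are estimated counts, which the authors had not normalized across libraries. These were rounded, genes were kept by filterByExpr (16960 of 31998) and libraries were scaled by TMM. edgeR 4.0.16 in R 4.3.3 fitted the 8 groups with RIN as a covariate by quasi-likelihood, with Benjamini-Hochberg adjustment. The SE is the size of the log2 fold change divided by the root of F. Estimated counts of genes with near-identical copies elsewhere, such as Ldha, may be split between copies. The sources used here differ on the library kit and so on strand, and counts of overlapping genes cannot be told apart.

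The genes, lists and tests were chosen with earlier results of these data known. Of the 37 genes 36 are named, and the values of the other are not reported here, although it is in the counts and medians. Values of each group are given for genes called in soleus that entered through plantaris, for genes called between lines, for the pair with the largest LRT plantaris change in each role and for genes listed in all 4 comparisons, and the others are given by log2 fold change. The tables of the authors' comparisons served for identifiers and symbols alone, and no column of samples was left unused. Alternatives were DESeq2 1.42.0, limma 3.58.1, DESeq2 size factors, no RIN, all genes with a count, each muscle alone, a fold threshold, the replicate block, leaving out each library and, added after the data were seen, library totals.

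Same-numbered plantaris and soleus libraries were taken to be 1 rat where all 6 correlations of their deviations were over 0.1. This held in LRT CTRL (0.136 to 0.277), LRT HI and HRT HI, and the block was used for the muscle comparison in LRT CTRL. HI and CTRL rats were separate. Between muscles the block was the rat, taken from line, treatment and number. In the other comparisons the block was the number alone, which joined different rats and is no pairing. Separate rats are the replicates, 6 a group, with 26.8 M to 36.4 M counts a library, and counting error was not separated from the spread between rats. Data were simulated for HI against CTRL in LRT plantaris (16779 genes, 99 changed at each size). In them edgeR recovered 71.7% at a log2 fold change of 1 and 96.0% at 2, with 3.49% false among calls. The false share among calls was 8.65% for DESeq2 and 3.57% for limma. Apart from the changed genes, every simulated library had the same expected share for a gene, and noise was independent between genes. In the real data far more genes were called and genes moved together across libraries, so these shares need not hold there. Figures were drawn with matplotlib 3.10.9 in Python 3.11.15. Promoters came from RefSeq (GRCr8), while the counts use Rnor_6.0, and no coordinate was carried between builds.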

Additional observations from a re-analysis of the deposited data

Results flagged for a closer look

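For each gene and group of 6, a library is listed here when its gap to the nearest other library, divided by the range of the group, was over Dixon's 95% critical value for 6 libraries. This held in 34 of 288 sets, where chance alone gives about 1 in 20, or 14.4, and the sets are not independent because the genes move together. No explanation was weighed. Replicate 4 of HRT plantaris HI held 7 of the 34, as the highest library for Cds2 (0.817) and Ppp1r15a (0.669) and as the lowest for Itm2a (0.714), Mylpf (0.67), Pfkm (0.78), Pkm (0.648) and Ptpn3 (0.674). Its Cds2 value was 59.1 CPM against 12.2 to 16.3 CPM in the other 5, and its Pfkm value 1447 CPM against 2378 to 2736 CPM.

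Among untreated rats, replicate 3 of LRT plantaris CTRL held 5, as the highest for Hspb1 (0.727), Sat1 (0.914) and Sqstm1 (0.675) and the lowest for Oxct1 (0.755) and Ptpn3 (0.704). Sat1 was 27.3 CPM there against 19.2 to 19.8 CPM in the others. The same number in LRT soleus CTRL held 4, as the highest for Gabarapl1 (0.732) and Hspb1 (0.642) and the lowest for Fam214a (0.651) and Ptpn3 (0.844). Ptpn3 was 86.5 CPM against 182 to 249 CPM in plantaris and 120.5 CPM against 317 to 379 CPM in soleus, so the CTRL animal with number 3 stood apart in both muscles, in the direction of HI for Hspb1 in plantaris, Sat1, Sqstm1, Gabarapl1, Oxct1 and Ptpn3 and against it for Fam214a and Hspb1 in soleus. Replicate 1 of HRT soleus CTRL held 3, as the highest for Jph2 (0.662) and the lowest for Ndufb8 (0.727) and Oxct1 (0.654).

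The other sets were spread over single libraries. In LRT plantaris these were the lowest Fam214a (0.721, HI replicate 6) and the highest Pfkfb3 (0.627, CTRL replicate 1). In HRT plantaris CTRL they were the lowest Fbxo31 (0.663, replicate 2) and the highest Gpnmb (0.704, replicate 4). In LRT soleus they were the lowest Mylpf (0.809, CTRL replicate 6, 207 CPM against 865 to 1213 CPM), the highest Tp63 (0.736, CTRL replicate 6), the highest Ndufs1 (0.692, CTRL replicate 1), the highest Hspb1 (0.668, HI replicate 5) and the lowest Psmb3 (0.629, HI replicate 6). In HRT soleus HI they were the lowest Gpnmb (0.627) and Kctd9 (0.753) in replicate 2, the lowest Ndufs1 (0.694) in replicate 1, the lowest Mylpf (0.695) in replicate 5, and the highest Pkm (0.707) in replicate 3 and Runx1 (0.646) in replicate 4.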

How the results depend on the processing

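No value of the 37 genes past a threshold changed its sign under an alternative. Counts of called genes were within 1.5 times the reported ones under most settings, and the exceptions follow. With an absolute log2 fold change over 1 as a further threshold, 10 genes were called in HRT plantaris, 2 in LRT soleus, 2 in HRT soleus (of the 35 listed for plantaris, as in all counts for HRT soleus here) and 9 between muscles in LRT CTRL. With all genes that have a count, 3 were called in HRT soleus and 0 between lines in CTRL soleus, where each muscle fitted alone gave 0 and DESeq2 gave 2. The causes were not tested. When 1 library was left out, counts ran from 33 to 35 in LRT plantaris, 9 to 23 in HRT plantaris, 4 to 11 in LRT soleus, 1 to 5 in HRT soleus, 0 to 2 between lines in CTRL soleus, 12 to 15 between muscles in LRT CTRL and 11 to 13 in HRT CTRL, and were 0 for both DELTA comparisons and for lines in CTRL plantaris. Library totals in place of TMM, chosen after seeing the data, shifted the median log2 fold change of all genes to 0.25 in LRT plantaris, 0.17 in HRT plantaris and 0.15 in LRT soleus. Under them the LRT soleus change of Fbxo30 was called (adjusted p = 0.037), as were Pfkfb3 (0.02) and Tp63 (0.048) there and Hspb1 in LRT plantaris (0.024), and that of Ppp1r15a in HRT soleus was not (0.083).

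With the replicate block, 22 genes were called between muscles in HRT CTRL in place of 12, where the pairs share only a number: the correlation was -0.0503 for number 1 and -0.026 for number 2, and 4 of 6 numbers correlated best with their own. In LRT CTRL the block gave 19 calls in place of 15. For HI against CTRL the block was the number alone, which joins different rats. In LRT soleus that block added Jph2 and Ndufb8 (edgeR adjusted p = 0.034 and 0.046), and nothing is read from this. Uchl1, Runx1 and Myc had the lowest CPM in LRT plantaris CTRL and SE of 0.50, 0.57 and 0.43 there. A limit from depth was not tested.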

Other observations

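Within the 37 genes, Foxo1 and Tp63 had almost the same plantaris response in both lines (DELTA of 0.03 ± 0.34 and -0.07 ± 0.41). The Foxo1 value in LRT depended on HI replicate 5, at 41.2 CPM against 9.06 to 19.0 CPM in the others. Uchl1 (1.89 ± 0.74), Runx1 (1.43 ± 0.78) and Myc (1.07 ± 0.59) had the widest gaps, none of which was called. Their HRT values were lower without HI replicate 4. Plantaris values chose these genes, so the gaps are a description.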
